A study of Mus musculus with 10 samples.

Results

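The interferon-stimulated genes described here are a list of 38 mouse genes that cells switch on after type I or type II interferon, read in cultured embryonic fibroblasts of 2 lines on 10 Affymetrix expression arrays. Each gene was represented by 1 probe set, the one with the highest mean over the 10 arrays among those annotated to that gene alone, and was kept where at least 1 of the 5 group means reached a log2 value of 4. This left 25 of the 38 genes, out of 10623 genes kept in the whole series. Of the other 13 genes, 10 had every group mean under 4. Another, Isg15, was found only on a probe set annotated to several genes, and Oas1g and Ifi44 had no annotated probe set. All values are log2 intensities after GCRMA, a background correction and normalization for these arrays, so a difference of 1 is a 2-fold change, and values are compared between arrays and never between genes.

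The arrays fall into 5 groups of 2. The CDKO groups are fibroblasts carrying a conditional knockout of Dicer, the enzyme that cuts hairpin precursors into microRNAs, and were left untreated or given the tamoxifen derivative that the labels name 4-Orthohydroxy Tamoxifen (OHT) at 1 or 5 µM for 4 days. The WT groups are the fibroblasts that the titles call wild type, left untreated or given 5 µM OHT for 4 days. The sample descriptions call all 10 arrays conditional knockout, and the groups here follow the titles. All cells were grown in DMEM with fetal bovine serum. The recombinase that OHT acts on, the promoter that drives it and the number of clones or embryos behind each line are not stated in the labels. Whether a group's 2 arrays hold RNA of different cultures is not stated either, so the p-values measure only the spread between these arrays, which may be technical.

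Interferons are secreted proteins that bind receptors on the cell surface and act through Janus kinases, which phosphorylate STAT transcription factors. Type I interferon assembles a complex that contains STAT2 and IRF9 and binds the interferon-stimulated response element (ISRE), whereas interferon gamma acts through the gamma-activated site (GAS). The genes switched on this way include sensors of double-stranded RNA, enzymes and membrane proteins that block viral replication, GTPases that attack intracellular microbes, parts of the antigen presentation machinery, and the pathway's own factors and brakes. Fibroblasts are known to make and to answer interferon beta.

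RefSeq promoter windows (GRCm38.p6, from 250 bases before to 50 after the annotated start) were at hand for 30 of the 38 genes. The 30 genes had 34 windows, and a gene was counted where any of its windows held a match. The ISRE core, searched as GAAANNGAA on both strands, was present in 18 of the 30 genes (60.0%), against 9.76% of 27025 genes. The GAS, searched as TTCNNNGAA on both strands, was present in 8 of the 30 genes (26.7%), against 9.55% of all genes. The 2 patterns can overlap, as they do in Bst2. A match describes the letters and shows no binding. The stretches of 100 bases that follow are shown because they belong to genes whose array values the results turn on. Capitals mark the matches, and each stretch is written 5′ to 3′ on the strand of its gene. Bst2 lies at chr8:71537509-71537608 (minus strand), Irgm1 at chr11:48871421-48871520 (minus), Oas1a at chr5:120907526-120907625 (minus), Ifit3 at chr19:34583374-34583473 (plus) and Irf1 at chr11:53769914-53770013 (plus).
Bst2: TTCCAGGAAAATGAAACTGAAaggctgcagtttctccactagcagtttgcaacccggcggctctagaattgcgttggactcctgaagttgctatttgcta
Irgm1: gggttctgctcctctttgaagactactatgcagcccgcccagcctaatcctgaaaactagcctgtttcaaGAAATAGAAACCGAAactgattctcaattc
Oas1a: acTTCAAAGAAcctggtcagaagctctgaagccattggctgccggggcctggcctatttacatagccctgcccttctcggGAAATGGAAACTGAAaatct
Ifit3: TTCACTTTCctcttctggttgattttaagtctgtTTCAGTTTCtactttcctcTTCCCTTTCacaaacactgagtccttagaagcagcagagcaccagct
Irf1: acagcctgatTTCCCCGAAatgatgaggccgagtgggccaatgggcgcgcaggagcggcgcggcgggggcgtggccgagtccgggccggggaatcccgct
Bst2 held a GAS and 2 ISRE cores between positions -136 and -116, counted from the start, the 3 matches overlapping in part. Irgm1 and Oas1a each held 2 overlapping ISRE cores within 30 bases of the start, and Oas1a also a GAS farther upstream. Ifit3 held 3 separate ISRE cores, all read on the opposite strand. Irf1 held a GAS and no ISRE core, as did Ifit2, Ifi35 and Psmb8. The windows of Irf9, Xaf1 and Oasl2 held neither pattern. No window was at hand for Usp18 and Parp9, so these were not searched.

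**Figure D1:**
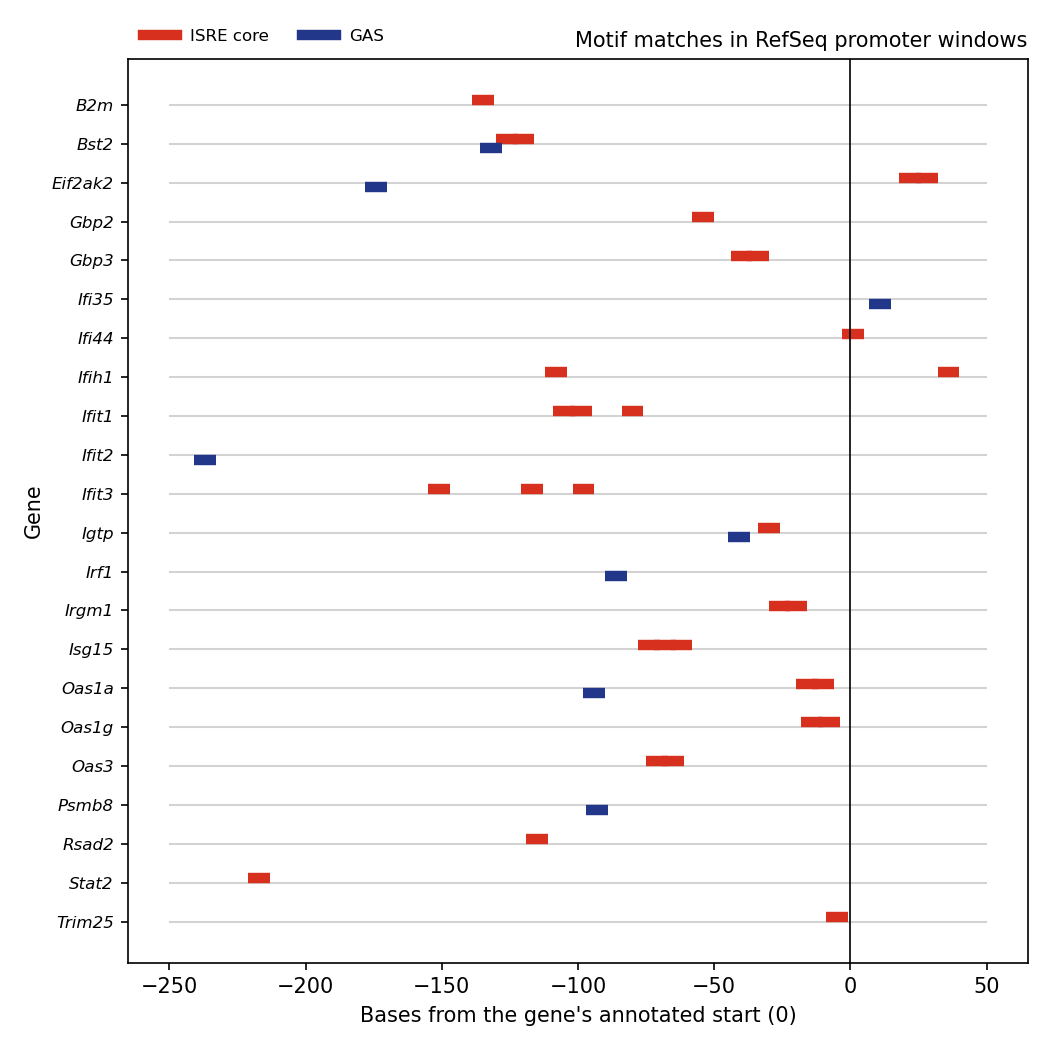
Matches to the ISRE core (red) and the GAS (blue) in the promoter windows of the listed genes with at least 1 match, by distance in bases from the annotated start (0). Each grey line is 1 window from 250 bases before to 50 after the start, and Irf1, Ifit2, Ifi35 and Psmb8 carry a GAS alone.

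Facts of the whole series bear on these genes. The small-subunit ribosomal RNA control of the array stood at 11.6 and 11.2 in the 2 untreated WT arrays and 10.2 in replicate 2 of CDKO at 1 µM, against 5.21 to 8.44 in the other 7. The 3′ minus 5′ difference of the Gapdh control, which grows as RNA degrades or is copied incompletely, was 0.89, 0.67 and 1.58 in those 3 arrays and at most 0.07 elsewhere. Fibroblast markers were measured by all 12 of 12 genes, Col1a2 among them at 13.1 to 14.9. Macrophage and leukocyte markers, 14 of 15 kept, were also well measured, with a mean of 8.65 and 8.75 in untreated WT, 8.79 and 8.77 in WT at 5 µM, 7.80 and 6.85 in untreated CDKO, 6.60 and 6.09 in the CDKO arrays at 1 µM, and 8.54 and 6.79 in those at 5 µM. Their defining marker Itgam was near background in every array (at most 2.68), whereas Lyz2 read 9.28 to 13.2. In bulk cultures fewer cells of a type and less RNA per cell cannot be told apart. Of 5 epithelial markers, Krt8 and Cdh1 were above 6 in both untreated WT arrays and at most 3.24 in the other 8. Krt18 was at 9.54 and 9.50 there and at 5.84 to 8.71 elsewhere, while Krt19 (5.40 to 7.63 over all arrays) and Epcam (3.42 to 4.03) were not set apart in untreated WT. Dicer1 on its better-measured probe set read 8.97 and 9.10 in untreated WT, 7.64 and 7.19 in WT at 5 µM, and 5.40 to 8.30 in the 6 CDKO arrays, where the highest was replicate 2 at 1 µM. Whether its probes lie in the deleted part is not stated in the labels, so this level checks no label.

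Across the 5 groups, most of the 25 genes had their lowest mean in untreated WT cells, and 13 had their highest in WT cells on OHT. The group mean was highest in WT at 5 µM for 13 genes (17.0% of all genes) and in untreated CDKO for 9 (12.4%). Igtp was kept only through WT at 5 µM and Iigp1 only through untreated CDKO, so the filter fixed their place here. In counts that set those groups against others, these genes are no support for a difference. It was highest in the CDKO group at 1 µM for 2 (17.6%), in untreated WT for 1 (32.1%) and in CDKO at 5 µM for 0 (20.9%). The mean was lowest in untreated WT for 18 of the 25 genes, against 26.2% of all genes, and in WT at 5 µM for 0, against 27.0%. With each gene centred on its own mean, the median of the 25 was -0.54 and -0.62 in the untreated WT arrays and 0.50 and 0.41 in WT at 5 µM. In the CDKO line it was 0.68 and 0.14 untreated, 0.18 and -0.47 at 1 µM, and -0.10 and -0.13 at 5 µM. The replicates agreed closely in the WT groups, where the genes' median SD was 0.08 in each. They agreed poorly in the untreated and 1 µM CDKO groups, at 0.53 and 0.49. The median SD over all genes was likewise 0.09 in untreated WT and 0.06 in WT at 5 µM, against 0.30 in untreated CDKO and 0.32 in CDKO at 1 µM.

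**Figure D2:**
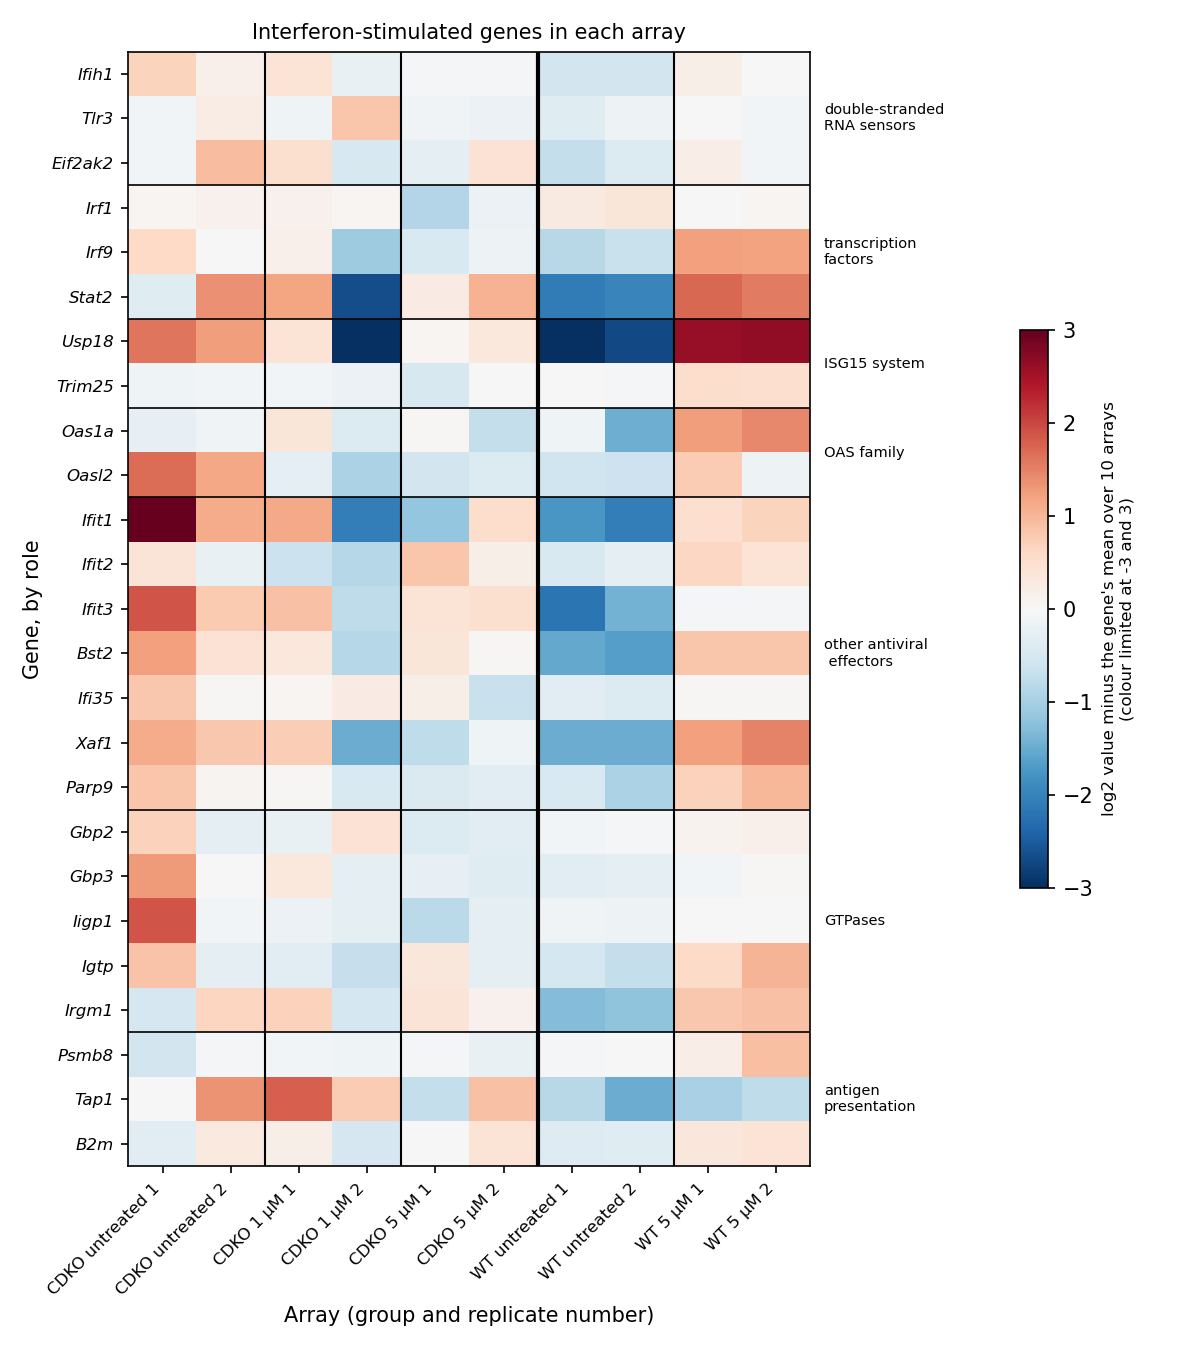
Log2 value of each of the 25 genes minus its mean over the 10 arrays, in columns by array and rows by role (colour limited at -3 and 3). The 2 untreated WT columns are mostly below 0 and the 2 columns of WT at 5 µM mostly above, while replicates 1 and 2 of CDKO at 1 µM differ from each other.

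In WT fibroblasts, 5 µM OHT was accompanied by higher values of 7 of the 25 genes and lower values of none in the fit of limma with Benjamini-Hochberg adjustment over all 20681 probe sets. This is 28% of the genes, against 3.45% of all genes higher. Usp18, a protease that strips ISG15 from proteins and dampens the type I receptor, had the largest change, and among the genes that passed Xaf1, Bst2, Oas1a, Irgm1, Irf9 and Parp9 followed. The median change of the 25 genes was 0.89, against -0.09 over all genes, and 24 of 25 changes were positive, against 44.5% of all genes. In 23 of 25 genes both treated arrays lay above both untreated ones (36.7% of all genes). Igtp, kept only through WT at 5 µM, is among them, and its place there is no evidence of a change. This comparison coincides with the step in the ribosomal RNA control, high in both untreated WT arrays and low in both treated ones, so OHT and that control cannot be told apart here. With no level filter, or without any 1 of the 4 WT arrays, 0 of the 25 passed. Between the same arrays, none of 14 macrophage and leukocyte markers passed, but they moved far in both directions, 7 of 14 upward, with a median of 0.06: the group mean of Cd68 went from 7.40 to 9.67 and that of Lyz2 from 11.45 to 13.24, whereas that of Csf1r went from 10.56 to 8.84. Of the epithelial markers 2 of 4 were lower, with a median of -2.49, and of the fibroblast markers 1 of 12, with a median of -0.57. The 1 kept endothelial marker, Emcn, changed by 1.03 without passing. The part of these markers in the values of the 25 genes was not tested.

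Among the sensors of double-stranded RNA, 3 of 4 were kept and none passed the threshold in any comparison. Ifih1, the cytosolic helicase MDA5, had the largest change of them in WT cells on the probe sets used here. It read 6.30 and 6.30 in untreated WT, 7.03 and 6.86 in WT at 5 µM, 7.52 and 6.99 in untreated CDKO, 7.25 and 6.61 at 1 µM and 6.80 and 6.78 at 5 µM. The untreated WT arrays were the lowest 2 of the 10. The change in WT was 0.65 ± 0.28 (SE, n = 2 per group, limma adjusted p = 0.17). Eif2ak2, the kinase PKR that stops translation, changed by 0.61 and Tlr3, the endosomal receptor, by 0.21. The other Eif2ak2 probe sets disagreed, with changes of 1.68 (limma adjusted p = 0.16) and -0.28. Dhx58 stayed between 2.43 and 2.79 in every array.

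Of the transcription factors, Irf9, the DNA-binding part of the type I complex, rose in WT cells. It read 7.37 and 7.54 in untreated WT, 9.44 and 9.42 in WT at 5 µM, 8.80 and 8.21 in untreated CDKO, 8.37 and 7.14 in the CDKO arrays at 1 µM, and 7.76 and 8.05 in those at 5 µM. Both treated WT arrays were above all others, and replicate 2 of CDKO at 1 µM was below both untreated WT arrays. The change in WT was 1.97 ± 0.40 (SE, limma adjusted p = 0.030). Stat2, its partner, read 4.15 and 4.26 in untreated WT and 7.96 and 7.80 in WT at 5 µM. It scattered widely in CDKO, at 5.90 and 7.61 untreated, 7.43 and 3.59 at 1 µM and 6.50 and 7.29 at 5 µM, and its change in WT of 3.67 ± 1.13 did not pass (limma adjusted p = 0.080). A second Stat2 probe set changed by 1.60 in WT with limma adjusted p = 0.028. Irf1, a factor induced through the GAS, was the only one of the 25 genes with a negative change in WT, -0.27 ± 0.25 (limma adjusted p = 0.52), and is named here after its values were seen. It read 8.64 and 8.73 in untreated WT, 8.40 and 8.44 in WT at 5 µM, 7.49 and 8.20 in CDKO at 5 µM, and 8.44 to 8.52 in the other 4 arrays. Irf7, the amplifier of interferon alpha production, was left out for low values, from 2.68 to 4.06, the highest in replicate 1 of untreated CDKO.

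In the ISG15 system, Usp18 rose from near background in WT cells. It read 2.76 and 3.10 in untreated WT, 8.42 and 8.48 in WT at 5 µM, 7.42 and 7.07 in untreated CDKO, 6.23 and 2.66 in the CDKO arrays at 1 µM, and 5.87 and 6.14 in those at 5 µM. The treated WT arrays were the highest 2, and the untreated WT arrays lay with replicate 2 of CDKO at 1 µM under 4, far below the rest. The change in WT was 5.52 ± 0.96 (SE, limma adjusted p = 0.019), measured from a mean of 2.93 at which the array gives little more than background. Trim25, a ubiquitin ligase that activates RIG-I, changed by 0.53 and did not pass. Its other probe sets disagreed, with changes of 1.90 (limma adjusted p = 0.026) and -0.04.

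The OAS family makes 2′-5′ oligoadenylates that activate the RNase L nuclease, and 2 of its 6 listed genes were kept. Oas1a rose in WT cells from 3.91 and 2.56 untreated to 5.28 and 5.48 at 5 µM. All 6 CDKO arrays, from 3.32 to 4.39, were below the treated WT arrays and overlapped the untreated ones. The change was 2.15 ± 0.48 (SE, limma adjusted p = 0.038), again from a mean under 4. Oasl2 read 4.38 and 4.35 in untreated WT, 5.73 and 4.83 in WT at 5 µM, and 6.65 and 6.12 in untreated CDKO. In the CDKO arrays it read 4.67 and 4.02 at 1 µM, and 4.42 and 4.57 at 5 µM. The untreated CDKO arrays stood above all 8 others. Oas2, Oas3 and Oasl1 had no array above 2.87.

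**Figure D3:**
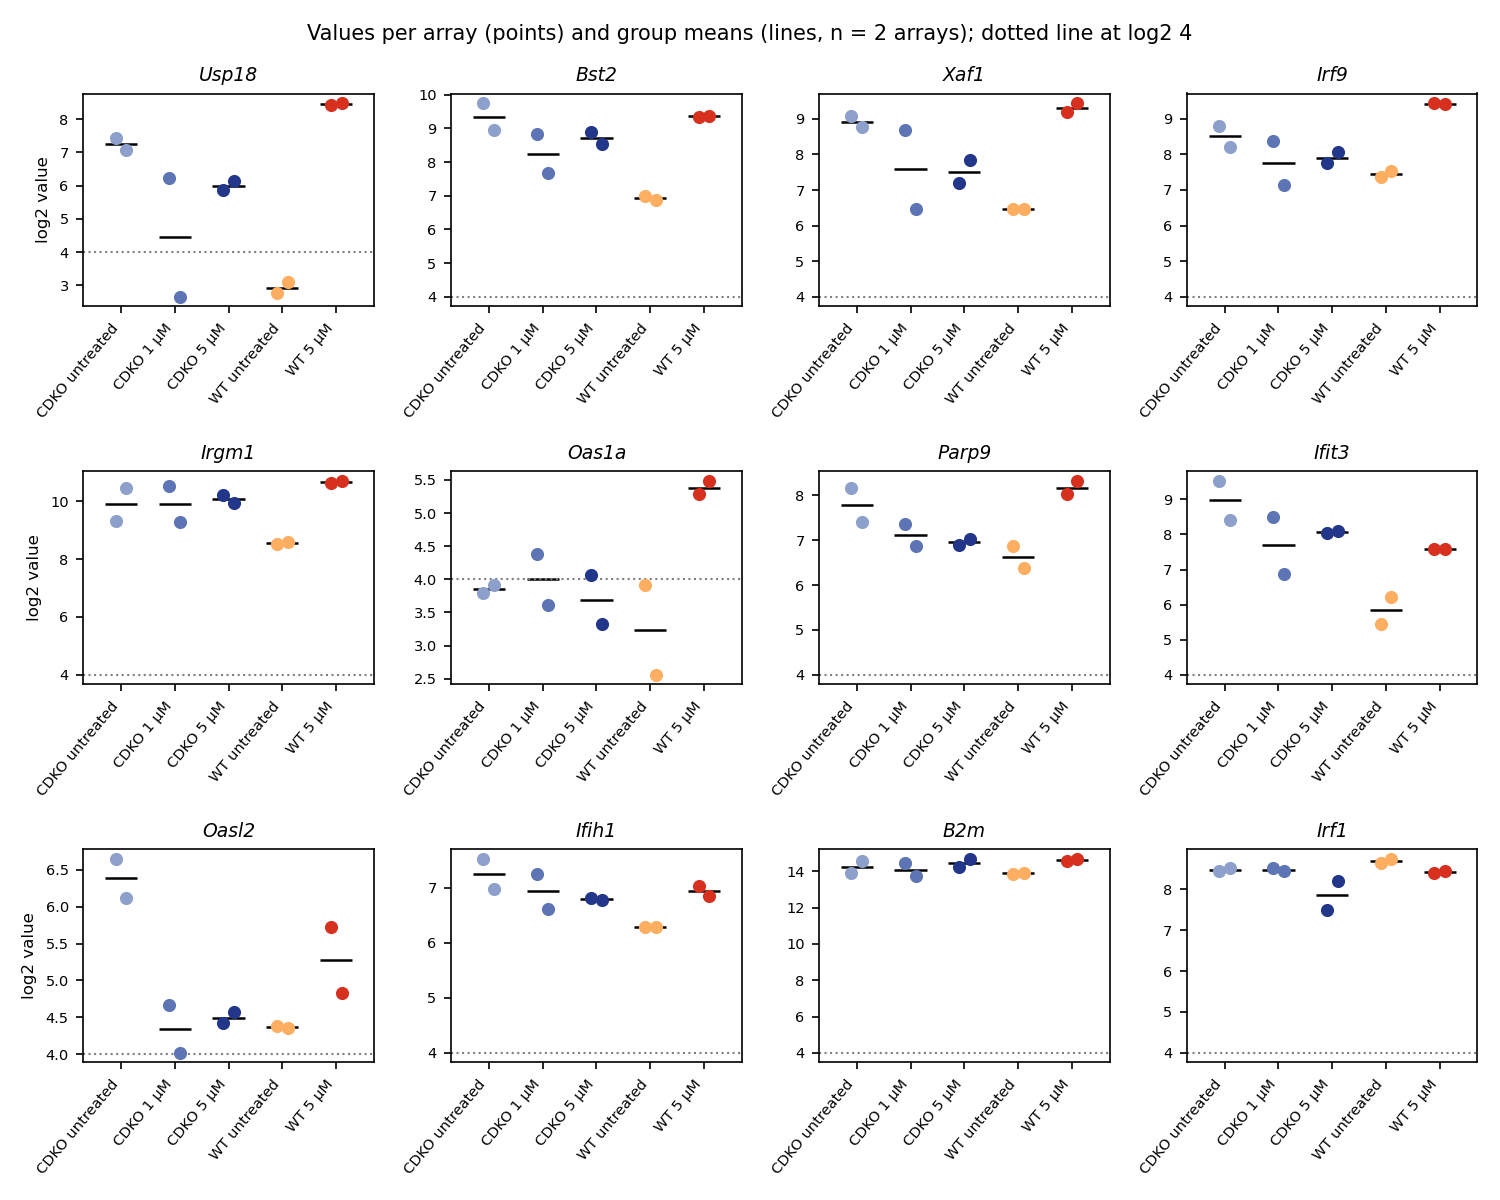
Log2 values per array (points) with the group mean (line, n = 2) for 12 genes, among them all that passed the threshold in a comparison, with a dotted line at 4. Usp18, Bst2, Xaf1 and Irf9 are low in both untreated WT arrays and in 1 of the 2 CDKO arrays at 1 µM.

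Of the other antiviral effectors, 7 of 12 were kept and 3 of these rose in WT cells on OHT. Bst2, or tetherin, which holds budding virus at the cell surface, read 6.99 and 6.87 in untreated WT, 9.35 and 9.36 in WT at 5 µM, 9.75 and 8.95 in untreated CDKO, 8.84 and 7.66 in the CDKO arrays at 1 µM, and 8.89 and 8.55 in those at 5 µM. The untreated WT arrays were the lowest 2 of the 10. The change in WT was 2.43 ± 0.42 (SE, limma adjusted p = 0.018). Xaf1, a pro-apoptotic binding partner of XIAP, read 6.47 and 6.48 in untreated WT, 9.18 and 9.44 in WT at 5 µM, 9.08 and 8.76 in untreated CDKO, 8.69 and 6.47 at 1 µM, and 7.20 and 7.83 at 5 µM. Its values spanned the same range in both lines, with the untreated WT arrays and 1 of the CDKO arrays at 1 µM at the bottom. Its change in WT was 2.84 ± 0.63 (SE, limma adjusted p = 0.037). A second Xaf1 probe set went against this in WT, with a change of -0.21 (limma adjusted p = 0.76), while it differed by 4.04 between the untreated lines (limma adjusted p = 0.0025) and by 3.13 between the lines on OHT (limma adjusted p = 0.012), both higher in CDKO. Parp9, a member of the ADP-ribosyltransferase family that works with DTX3L, read 6.87 and 6.39 in untreated WT, 8.02 and 8.32 in WT at 5 µM, 8.16 and 7.42 in untreated CDKO, 7.36 and 6.88 at 1 µM, and 6.89 and 7.02 at 5 µM. The treated WT arrays were above the untreated ones, and replicate 1 of untreated CDKO lay between the 2 treated WT values. Its change in WT was 1.54 ± 0.32 (SE, limma adjusted p = 0.032). The RNA-binding Ifit proteins and Ifi35 had positive changes in WT that did not pass, and Mx1, Mx2 and Rsad2 were at most 3.05 in all 10 arrays.

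All 5 listed GTPases were kept, and Irgm1, which acts on the vacuoles of intracellular microbes, was the one that rose in WT. It read 8.51 and 8.60 in untreated WT, 10.63 and 10.69 in WT at 5 µM, 9.32 and 10.45 in untreated CDKO, 10.52 and 9.28 in the CDKO arrays at 1 µM, and 10.21 and 9.94 in those at 5 µM. The treated WT arrays were the highest 2 and the untreated WT arrays the lowest 2. The change was 2.11 ± 0.47 (SE, limma adjusted p = 0.038). Gbp2, Gbp3, Iigp1 and Igtp changed by 0.14 to 1.42 without passing. Iigp1 was kept only through untreated CDKO, at 5.67 in replicate 1 and 3.71 in replicate 2, and its other arrays read at most 3.81. Its differences from untreated CDKO therefore rest on the array that admitted the gene and are no evidence of a change. Igtp was kept only through WT at 5 µM, with a mean of 4.00. It was the gene just inside the level limit, followed by Tlr3 at 4.47. The genes just outside were Parp14 at 3.74 and Irf7 at 3.71.

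Of the antigen presentation genes, 3 of 4 were kept and none passed in any comparison. B2m, the light chain of MHC class I, was read at 13.9 and 13.9 in untreated WT, 14.6 and 14.7 in WT at 5 µM, 13.9 and 14.6 in untreated CDKO, 14.4 and 13.8 in the CDKO arrays at 1 µM, and 14.2 and 14.7 in those at 5 µM. The treated WT arrays were above the untreated ones and the CDKO groups spanned both. The change in WT was 0.74 ± 0.32 (SE, limma adjusted p = 0.16). Psmb8, an immunoproteasome subunit, and Tap1, the peptide transporter, changed by 0.57 and 0.30 in WT without passing, and Psmb9 was at most 3.05 in every array.

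Without OHT, 4 of the 25 genes were higher in CDKO than in WT cells and none was lower, which is 16% of the genes against 1.94% of all genes higher. They were Usp18, with a difference of 4.31 ± 0.96 (SE, limma adjusted p = 0.042), Ifit3 with 3.14 ± 0.57 (limma adjusted p = 0.024), Bst2 with 2.42 ± 0.42 (limma adjusted p = 0.019) and Oasl2 with 2.02 ± 0.36 (limma adjusted p = 0.022). Ifit3, which binds other Ifit proteins on foreign RNA, read 9.52 and 8.42 in untreated CDKO, 8.51 and 6.88 at 1 µM, 8.03 and 8.11 at 5 µM, 5.45 and 6.22 in untreated WT, and 7.59 and 7.59 in WT at 5 µM. All 6 CDKO arrays were above both untreated WT arrays. The median difference of the 25 genes was 0.99, against -0.05 over all genes, and 22 were positive. In 20 of 25 genes both CDKO arrays were above both WT arrays (27.8% of all genes). This comparison uses the same untreated WT arrays as the one of OHT in WT cells, and again the line and the ribosomal RNA control cannot be told apart. With no level filter 0 genes passed, and none of the 4 calls held under the loss of every single array. With each array left out in turn, the median ran from 0.69 to 1.22. Macrophage and leukocyte markers differed by a median of -1.56, with 1 of 14 positive and none past the threshold. Of 4 epithelial markers 2 were lower in CDKO, with a median of -2.85, and the endothelial Emcn was higher by 1.86. The part of these markers was not tested. Another Ifi35 probe set was higher in CDKO by 1.05 (limma adjusted p = 0.033), where the one used here did not pass.

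In CDKO cells the list did not pass the threshold at either dose. At 5 µM against untreated, limma called 0 of 25 genes (0.141% of all genes in either direction), and 4 had an unadjusted p under 0.05. The median change was -0.59, against -0.01 over all genes, 20 of 25 changes were negative, and in 14 genes both treated arrays lay below both untreated ones (13.2% of all genes). The largest changes in size were those of Ifit1, -2.43 ± 1.10 (limma adjusted p = 0.59), and Oasl2, -1.89 ± 0.36 (limma adjusted p = 0.14). The array pairs with the same level of hybridisation controls, 1 treated against 1 untreated array each, gave medians of -0.71 and -0.35. Iigp1 changed by -1.44, from an untreated mean that rests on replicate 1, at 5.67 against 3.71 in replicate 2. Between the same groups, fibroblast markers had a median change of -0.62, with 1 of 12 positive, and macrophage and leukocyte markers one of 0.22, with 9 of 14 positive; none passed, and their part was not tested.

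At 1 µM against untreated, limma again called 0 of 25 genes (0% of all genes). Before adjustment 5 of the 25 had a limma p under 0.05, as had 244 of all 10623 genes. The median change was -0.62, against 0.00 over all genes, 20 of 25 changes were negative, and in 8 genes both treated arrays lay below both untreated ones (11.2% of all genes). The 2 arrays at 1 µM differed: replicate 1 was above replicate 2 in 22 of 25 genes, against 32.5% of all genes. Replicate 2, the array with the high ribosomal RNA control, was nearer to the untreated WT mean than to the untreated CDKO mean for 17 of the 25 genes, where 5811 of all 10623 genes were, and replicate 1 for 7, where 3164 of all genes were. The median change from untreated was -0.92 for replicate 2 and -0.23 for replicate 1. Over all genes the same medians were 0.16 for replicate 2 and -0.10 for replicate 1. Macrophage and leukocyte markers had a median change of -1.06 at this dose. Between 5 and 1 µM limma called 0 of 25 genes (0.16% of all genes), and the median difference was -0.02. Only 2 of the 25 had an unadjusted limma p under 0.05, where 1141 of all 10623 genes did. Without replicate 1 at 1 µM the median was 0.48, and without replicate 2 it was -0.40, with 22 of 25 negative. Over all genes these medians were -0.16 and 0.10.

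**Figure D4:**
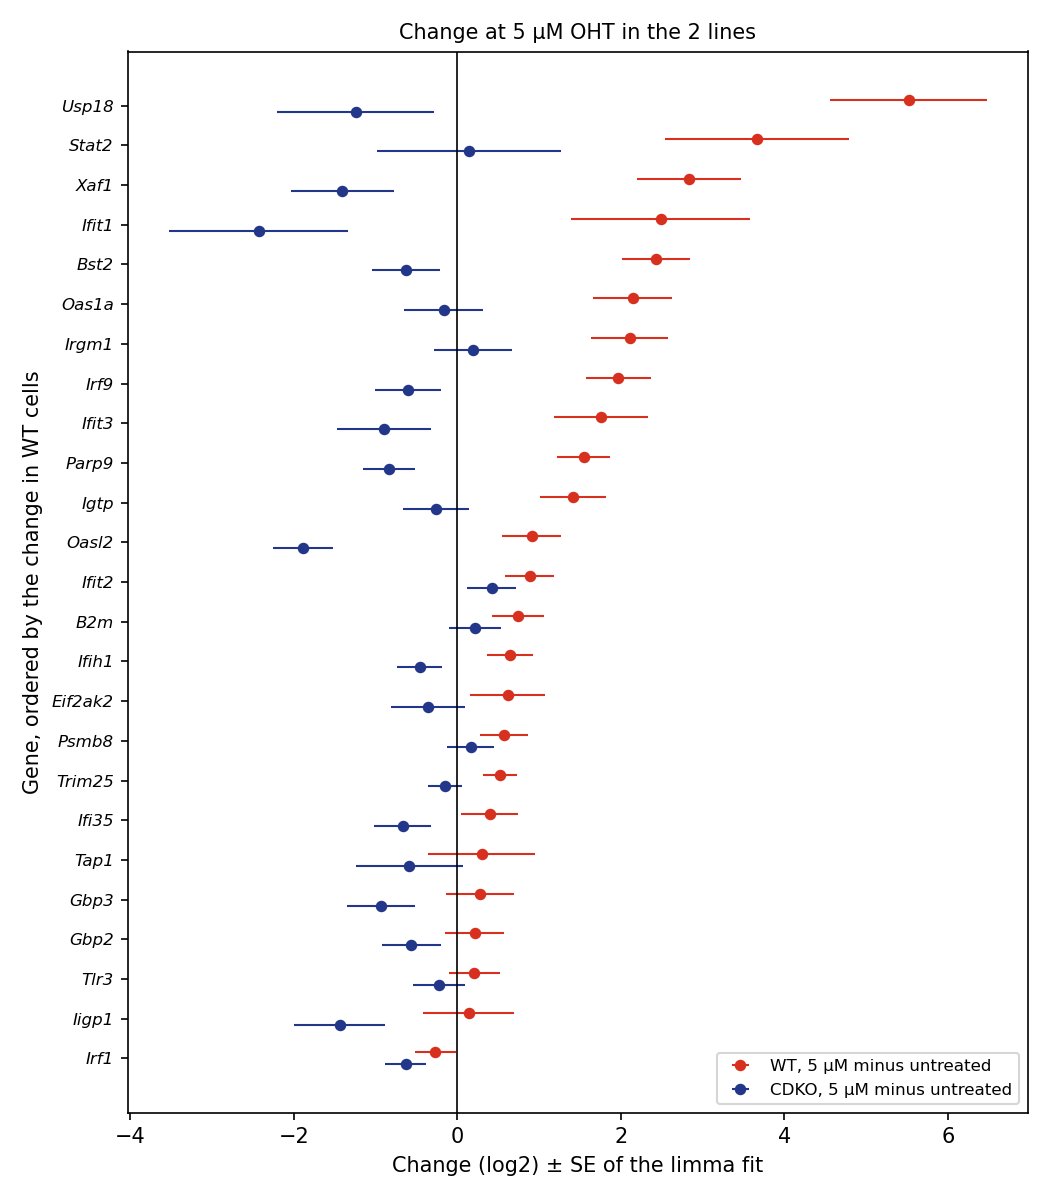
Change from untreated to 5 µM OHT (log2, ± SE of the limma fit, n = 2 arrays per group) for each of the 25 genes in WT (red) and CDKO cells (blue), ordered by the change in WT. All but Irf1 lie above 0 in WT, and 20 of 25 lie below 0 in CDKO.

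The response to 5 µM OHT was lower in CDKO than in WT cells for all 25 genes in the value of the difference between lines, with a median of -1.58 against 0.09 over all genes. The contrast holds both untreated WT arrays, so it too cannot be told apart from their high ribosomal RNA control, and of 4 epithelial markers 2 passed on it, with a median of 3.16. Limma called 0 of the 25 genes on this difference (0.301% of all genes in either direction), and 12 had an unadjusted p under 0.05. Usp18 had the largest difference, -6.76 ± 1.35 (SE, limma adjusted p = 0.12). The 2 within-line changes share no arrays: 19 of 25 genes had a negative change in CDKO and a positive one in WT, against 16.1% of all genes, 5 were positive in both and 1 was negative in both. CDKO at 1 µM does not enter the contrast but adds to the estimated spread. With each array left out in turn, the median ran from -1.86 to -1.45.

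With both lines on 5 µM OHT, limma called 0 of 25 genes between CDKO and WT (1.45% of all genes in either direction), with 6 at an unadjusted p under 0.05. The median difference was -0.58, against 0.04 over all genes, 22 of 25 were negative, and in 18 both CDKO arrays were below both WT arrays (24.2% of all genes). Neither group holds an array with the high ribosomal RNA control. Xaf1 differed by -1.79 ± 0.63 (limma adjusted p = 0.23) and Irf9 by -1.52 ± 0.40 (limma adjusted p = 0.13), while Ifit3 differed by 0.48. With each array left out in turn, the median ran from -0.60 to -0.53. Macrophage and leukocyte markers had a median difference of -1.33, with 1 of 14 positive, and fibroblast markers one of -0.54, with 2 of 12 positive; none passed, and their part was not tested.

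The comparison that the series' own design names sets the 4 treated CDKO arrays against the 6 arrays of the 3 control groups. Limma called 0 of 25 genes (2.43% of all genes in either direction), with 5 at an unadjusted p under 0.05. The median difference was -0.22, against 0.02 over all genes, and Oasl2 came closest, at -0.92 ± 0.23 (limma adjusted p = 0.081). Without the untreated WT arrays the median was -0.42 and 0 genes passed. With each array left out in turn, the median ran from -0.35, without replicate 1 of CDKO at 1 µM, to -0.12, without replicate 2.

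**Figure D5:**
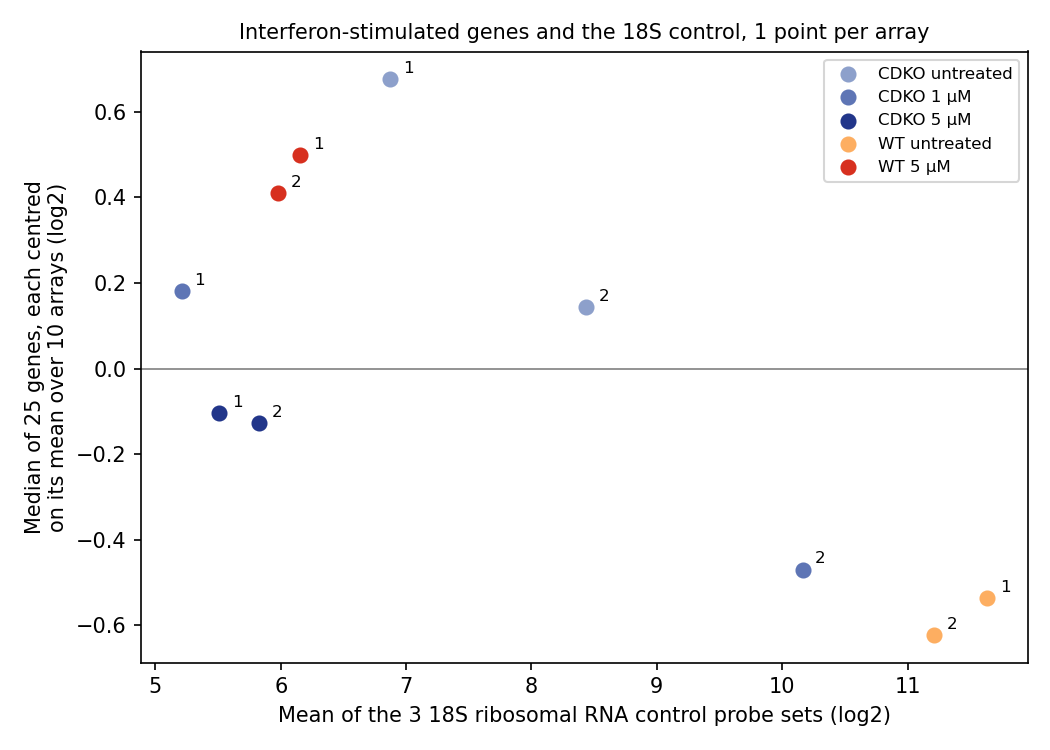
Median of the 25 genes, each centred on its mean over 10 arrays (log2), against the mean of the 3 control probe sets for small-subunit ribosomal RNA (log2), 1 point per array with its replicate number. The 3 arrays above 10 on the control have the 3 lowest medians, from -0.62 to -0.47.

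The 3 arrays with a high ribosomal RNA control also had the 3 lowest medians of these genes. In 14 of the 25 genes, Usp18, Bst2, Xaf1, Irf9, Irgm1, Ifit3, Oasl2, Ifih1 and B2m among them, the 3 arrays with a high control all lay below the other 7, against 8.05% of all genes. None of the 25 had all 3 above, against 13.7% of all genes. Bst2 shows the step: its values were 6.87 to 7.66 in those 3 arrays and 8.55 to 9.75 in the other 7. The part of the control, or of what it records about the RNA, in the values of these genes was not tested.

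The interferon genes themselves gave no signal. Ifnb1 read 2.33 to 2.62 in all 10 arrays, and Ifna2, Ifna4 and Ifng stayed under 2.5. Of 10 interferon and receptor genes, 5 were kept and none passed in any of the 8 comparisons. Ifnar1, one chain of the type I receptor, read 9.36 and 9.18 in untreated WT and 7.88 and 7.99 in WT at 5 µM, a change of -1.33 ± 0.37 (SE, limma adjusted p = 0.063). Ifnar2, the other chain, was between 9.08 and 9.76 in every array and changed by 0.10. Ifngr2 read 7.10 and 7.37 in untreated WT, 9.88 and 10.1 in WT at 5 µM, 7.56 in replicate 2 of CDKO at 1 µM and 9.39 to 10.6 in the other CDKO arrays. Its change in WT was 2.75 ± 0.89 (limma adjusted p = 0.089), and its low arrays were the 3 with the high ribosomal RNA control.

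Of 10 genes for kinases, STATs and inhibitors, 8 were kept, and none was higher and 1 lower in WT on OHT, where 4.73% of all genes were lower. This was Jak2, the kinase of the interferon gamma receptor, at 9.22 and 8.87 untreated and 7.45 and 7.18 treated, a change of -1.73 ± 0.43 (SE, limma adjusted p = 0.049). Of 24 genes for nucleic acid sensing and IRF activation, 15 were kept, and again none was higher and 1 lower in WT on OHT. This was Irf5, a factor downstream of Toll-like receptors, at 6.00 and 6.19 in untreated WT and 4.60 to 4.94 in the other 8 arrays, a change of -1.23 ± 0.18 (SE, limma adjusted p = 0.013). In CDKO at 5 µM against untreated, none of these 2 lists' kept genes passed.

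A further list of 55 interferon-induced genes, 36 of them kept, gave 3 higher and 0 lower in WT on OHT, where 3.45% of all genes were higher, with a median of 0.53 and 30 positive. Rtp4, a chaperone of receptors, read 3.84 and 5.20 untreated and 7.89 and 7.93 treated, a change of 3.39 ± 0.81 (SE, limma adjusted p = 0.045). Irgm2, a relative of Irgm1, changed by 2.07 ± 0.37 (SE, limma adjusted p = 0.020). Ifi204, a DNA-binding protein, read 5.87 and 5.77 untreated and 7.61 and 7.36 treated, a change of 1.66 ± 0.29 (SE, limma adjusted p = 0.019). Unlike most of the list, Ifi204 was at 4.05 to 5.54 in the CDKO arrays, all below untreated WT. Between the untreated lines 3 of the 36 were higher in CDKO and 1 was lower, against 1.94% of all genes higher and 2.6% lower, with a median of 0.35. In CDKO at 5 µM against untreated none passed, and the median was -0.32 with 11 of 36 positive.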

How the data were processed

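Expression was measured on 10 Affymetrix arrays from total RNA, 2 in each of 5 groups. The deposited values are log2 intensities made by the authors with GCRMA, per the submitters' processing notes, and run from 1.094 to 16.037 over 45101 probe sets. GCRMA pulls dim probe sets to a floor, so changes from a mean under 4 are measured from near background. Symbols came from the platform annotation, and only probe sets with 1 symbol (34958) were named. The 20681 probe sets that reached 4 in 1 or more group means were fitted with limma 3.58.1 in R 4.3.3 on the 5 group means, with 5 residual degrees of freedom, and p-values were adjusted by Benjamini-Hochberg over all of them, with a threshold of 0.05. The fit was tested on simulated data. All 38 genes are accounted for: values per array are given for genes past the threshold in at least 1 of 8 comparisons and, in a role group with none, for the largest change in WT. Of each further list, up to 4 genes past the threshold in WT or CDKO at 5 µM are named, or up to 2 with the smallest p. The members and lists were chosen with earlier results of these data known. Alternatives were the level filter, scaling, prior, array weights, the compared groups alone, the choice of probe set, blocks for replicate number and for arrays with high or low hybridisation controls, and leaving out each array. The number of arrays limits the precision. Replicate numbers were not used to pair the samples in the fit. Deviations of same-numbered arrays correlated from -0.45, between CDKO untreated and at 1 µM, to 0.43, between CDKO untreated and at 5 µM. This range does not settle whether same-numbered CDKO arrays were handled together.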

Additional observations from a re-analysis of the deposited data

How the results depend on the processing

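With 2 arrays a group, the counts of called genes moved easily, and the counts over all probe sets moved as well. The medians of the 25 genes kept their sign in 7 of the 8 comparisons. The median between 5 and 1 µM, near 0, did not. The 7 genes higher in WT on OHT remained the same 7 with arrays centred or quantile normalized, a trended prior or 1 probe set per gene in the fit. Centring moved the median of all genes from -0.09 to 0.01 in WT on OHT, from 0.09 to -0.05 on the difference between lines and from 0.04 to -0.09 between lines on OHT, and left 24, 0 and 2 of the 25 genes positive, against 24, 0 and 3. Without the level filter 0 passed, in this comparison and between the untreated lines. Array weights gave 19 in WT on OHT (18 higher and 1, Irf1, lower). There they called 12458 of all 20681 probe sets, against 1909 without weights, so the count is not particular to these genes. On the difference between lines they gave 1, with 49 probe sets called. The compared groups alone gave 17 in WT on OHT (11308 probe sets called) and 2 between the untreated lines (489 probe sets). A replicate block gave 5 and 3 in these 2 comparisons, where 7 and 4 were called without it, and 0 in the other 6. A block for the hybridisation control level gave 9 and 5, with 2988 and 2206 probe sets called. Igtp is among the 19, 17 and 9 genes called in WT on OHT. It was kept only through WT at 5 µM, so its calls there are no evidence of a change.

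Leaving out each array in turn leaves a group with 1 array, assumed to vary like the others. Medians are therefore given here instead of counts, which changed with single arrays. No call in WT on OHT or between the untreated lines held under the loss of every single array. The median of these genes ran from 0.78 to 1.00 in WT on OHT and from 0.69 to 1.22 between the untreated lines. It ran from -0.82 to -0.35 in CDKO at 5 µM, from -0.92 to -0.23 in CDKO at 1 µM and from -0.40 to 0.48 between doses. On the difference between lines it ran from -1.86 to -1.45, and between lines on OHT from -0.60 to -0.53. For treated CDKO against the controls it ran from -0.35 to -0.12. Of 909 alternative values for the 11 genes given per array in 4 comparisons, 801 kept direction and side of the threshold, 77 lost the call, 27 gained one and 4 changed sign, all under the loss of 1 array. In CDKO at 5 µM, Irgm1 ran from -0.38 to 0.76 and B2m from -0.092 to 0.53, both negative without CDKO replicate 1, and Oas1a from -0.53 to 0.20, positive without replicate 2 at 5 µM. Between the untreated lines Oas1a ran from -0.056, without WT replicate 2, to 1.30. The cause of these changes was not tested.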
